A study of Homo sapiens with 15 samples.

Results

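The complement genes described here are 38 genes of the complement cascade, its regulators and its receptors, taken by symbol from a table of 35012 gene symbols. They were chosen by what they encode, with no threshold on a measured value. Expression was measured by RNA sequencing in HepG2 cells, an established human liver cancer line that makes many plasma proteins. Cells were transduced with lentivirus carrying hairpin RNAs, selected with puromycin and harvested at day 5. The groups were a double knockdown with hairpins against both BRG1 and BRM (labelled shBRG1 + shBRM, 4 libraries), a BRG1 knockdown (shBrg1, 4 libraries), a BRM knockdown (shBrm, 3 libraries) and control cells with a non-silencing hairpin (shNS, called NS, 4 libraries). BRG1 (gene SMARCA4) and BRM (gene SMARCA2) are the motor ATPases of SWI/SNF chromatin remodelling complexes, each of which holds either of them. The model is a single tumour line, all groups including NS carry virus and drug selection, and the labels do not give the hairpin sequences. Since RNA came from whole cultures, fewer cells expressing a gene and less RNA per cell cannot be told apart.

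Complement is a cascade of plasma proteins, made mainly by hepatocytes, that marks microbes and damaged cells for removal. The classical route starts at C1, the lectin route at sugar-binding proteins such as mannose-binding lectin, and the alternative route at C3 itself with factors B and D. The routes meet at the cleavage of C3, after which C5 is cleaved and the terminal proteins from C5b to C9 build a pore called the membrane attack complex. Soluble and membrane-bound regulators limit this on the body's own cells.

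Total estimated counts ran from 11500149 to 27187991 per library. Levels are given as CPM (counts scaled to a common library size), on totals scaled by the trimmed mean of M-values, and libraries are listed from 1 to 4 (1 to 3 for BRM). SMARCA4 averaged 46.2 ± 6.09 CPM in the double knockdown, 27.8 ± 2.32 CPM in the BRG1 knockdown, 346 ± 86.6 CPM in the BRM knockdown and 307 ± 6.99 CPM in NS cells. SMARCA2 averaged 2.56 ± 0.300 CPM in the double knockdown, 25.8 ± 3.64 CPM in the BRG1 knockdown, 4.38 ± 2.22 CPM in the BRM knockdown and 39.2 ± 4.05 CPM in NS cells (SD, n = 4, 4, 3 and 4). Libraries 1 and 2 stood apart from libraries 3 and 4 in every group, with 4.97 to 8.33% of counts from mitochondrial genes in the low-numbered libraries and 1.33 to 3.55% in the high-numbered ones. What libraries of the same number have in common is not stated in the labels, nor whether replicates came from separate cultures. The p-values therefore reflect sample-to-sample spread that may be technical. For changes called in the pooled fit or within either set, other than those of C3AR1, the changes within the sets are given as "by set", with libraries 1 and 2 before libraries 3 and 4. Libraries 3 and 4 hold a single BRM library, BRM 3, so the BRM change there assumes that it varies like the other groups, which supply the spread.

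All 10 hepatocyte markers checked were expressed, and their summed level ranged from 11800 to 27100 CPM in the double knockdown, 5780 to 20400 CPM in the BRG1 knockdown, 51100 to 56100 CPM in the BRM knockdown and 25300 to 39600 CPM in NS cells. Against NS, 3 of the 10 were called lower in the double knockdown, 7 lower in the BRG1 knockdown, and 1 higher and 1 lower in the BRM knockdown. Over all genes tested, 9.9% were lower in the double knockdown, 9.97% lower in the BRG1 knockdown, and 7.66% higher and 6.26% lower in the BRM knockdown. The summed level of 6 bile duct markers was 1290 to 2780 CPM in the double knockdown, 2880 to 5020 CPM in the BRG1 knockdown, 515 to 1030 CPM in the BRM knockdown and 1020 to 1510 CPM in NS cells. That sum was mostly KRT19, and the bile duct chloride channel CFTR was at or near 0. Of 8 myeloid markers 4 passed the filter on low counts. Their sum was 329 to 446 CPM in the double knockdown, 688 to 1410 CPM in the BRG1 knockdown, 138 to 249 CPM in the BRM knockdown and 483 to 1700 CPM in NS cells, and it was mostly lysozyme (LYZ), with the defining marker PTPRC below 1 CPM in every library. The 6 endothelial markers summed to at most 10 CPM in any library, with KDR and TEK at or near 0. The 8 stromal markers summed to 90.4 to 139 CPM in the double knockdown, 121 to 296 CPM in the BRG1 knockdown, 123 to 214 CPM in the BRM knockdown and 61.6 to 119 CPM in NS cells, with LUM at or near 0. The part of these markers in the complement results was not tested.

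Promoter windows from RefSeq (GRCh38.p14), 300 bases long with 250 before and 50 after a transcript start, were found for 26 of the 38 genes, 38 windows in all. The windows of 4 genes are shown, and no result rests on a window. Factor B (CFB) was called lower in the BRG1 knockdown alone of the knockdowns. The alpha chain of C4b-binding protein (C4BPA) was called lower in the double and BRG1 knockdowns. CD59 and the C3a receptor (C3AR1) were the members that rose in the BRG1 knockdown. The windows shown lie at chr6:31945845-31946144 (CFB, plus strand), chr1:207103983-207104282 (C4BPA, plus strand), chr11:33722678-33722977 (CD59, minus strand, 1 of 4 windows) and chr12:8066310-8066609 (C3AR1, minus strand), each 5′ to 3′. Capitals mark matches, on either strand, to motif letters of factors known to act on liver or immune genes.
CFB promoter: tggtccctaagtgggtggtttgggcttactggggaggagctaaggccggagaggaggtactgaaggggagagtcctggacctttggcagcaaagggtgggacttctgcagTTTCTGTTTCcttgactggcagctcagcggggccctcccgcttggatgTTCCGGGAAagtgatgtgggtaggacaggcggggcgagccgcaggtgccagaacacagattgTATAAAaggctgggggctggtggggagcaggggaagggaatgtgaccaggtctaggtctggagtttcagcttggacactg
C4BPA promoter: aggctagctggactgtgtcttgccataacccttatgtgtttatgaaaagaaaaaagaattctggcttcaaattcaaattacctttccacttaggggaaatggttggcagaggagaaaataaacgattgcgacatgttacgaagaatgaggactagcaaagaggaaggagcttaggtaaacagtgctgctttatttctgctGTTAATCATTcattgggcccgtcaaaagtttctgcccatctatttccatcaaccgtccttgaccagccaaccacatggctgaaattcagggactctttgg
CD59 promoter: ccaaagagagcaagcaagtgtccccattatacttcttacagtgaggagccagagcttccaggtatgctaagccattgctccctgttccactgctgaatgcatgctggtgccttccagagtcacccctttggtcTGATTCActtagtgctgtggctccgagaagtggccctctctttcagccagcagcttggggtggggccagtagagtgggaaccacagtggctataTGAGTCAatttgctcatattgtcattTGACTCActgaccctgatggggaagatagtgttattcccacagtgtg
C3AR1 promoter: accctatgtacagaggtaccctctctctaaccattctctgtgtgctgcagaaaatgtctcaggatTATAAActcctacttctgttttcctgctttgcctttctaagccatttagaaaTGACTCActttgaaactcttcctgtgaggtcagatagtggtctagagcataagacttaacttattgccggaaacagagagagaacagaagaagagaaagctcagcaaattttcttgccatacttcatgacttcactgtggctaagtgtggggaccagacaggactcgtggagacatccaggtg

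The CFB window held letters of an interferon response element (TTTC, any 2 bases, TTTC), a STAT site (TTCNNNGAA) and a TATA box (TATAAA). Over all 35114 RefSeq windows these letters occur in 3.57%, 7.66% and 11.5%. The C4BPA window held letters of the liver factor HNF1 (GTTAAT, any base, ATT), found in 0.322% of all windows and in 2 of the 38 complement windows, the other being that of C5. The CD59 window held the AP-1 letters TGANTCA at 3 places and the C3AR1 window held them once beside TATA letters. The other CD59 windows held no AP-1 letters, 2 of them holding STAT letters and 1 C/EBP letters. The CD59 window shown lies inside the annotated gene, whereas the 2 with STAT letters span its annotated start at 33736491. AP-1 letters occurred in 3 of the 38 complement windows, the third being that of C1RL, and in 7.71% of all windows. The letters CAAAGTCC (HNF4) were in 1 complement window and 1.2% of all, TTNNGCAA (C/EBP) in 9 and 10.5%, the NF-kB letters (GGGA, any base, TT, any base, CC) in 0 and 1.4%, and STAT letters in 11. Several windows of a gene overlap each other, and a match is a description of letters, not a binding site.

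The first question was which complement transcripts change when both ATPases, BRG1 alone or BRM alone are depleted. More complement transcripts were called lower than higher in the double and BRG1 knockdowns, among them C3, both copies of C4, CFI, C4BPA and CD46, while calls in the BRM knockdown were fewer and went in both directions. Of the 38 genes 29 passed the filter on low counts and were tested among 14621 genes with edgeR, and a gene is called at an adjusted p under 0.05 over all of these. In the double knockdown 14 members were lower and 2 higher than in NS cells, where 9.9% and 11.8% of all genes were called in those directions. In the BRG1 knockdown 18 were lower and 2 higher, against 9.97% and 12.5% of all genes. In the BRM knockdown 4 were lower and 5 higher, against 6.26% and 7.66% of all genes. The median log2 change of the 29 was −0.90 in the double knockdown (0.02 over all genes tested), −1.35 in the BRG1 knockdown (0.02) and 0.17 in the BRM knockdown (0.03). These 3 comparisons share the NS libraries. The falls counted in the double knockdown include C6, C7 and C8G. They reached the filter level of 0.512 CPM, taken on unscaled totals, in 0 double libraries and entered the test through other groups, so that they had to differ. The same holds for C6 in the BRG1 count, with 0 BRG1 libraries at that level, and for C7 and C8G in the BRM count, with 0 BRM libraries. Of the rises, C3AR1 reached it in 3 BRG1 libraries and 0 double, BRM or NS libraries, and so had to differ in the BRG1 knockdown. The members' summed level was 1517 to 2616 CPM in the double knockdown, 1142 to 2428 CPM in the BRG1 knockdown, 3673 to 5022 CPM in the BRM knockdown and 3121 to 4302 CPM in NS cells.

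**Figure D1:**
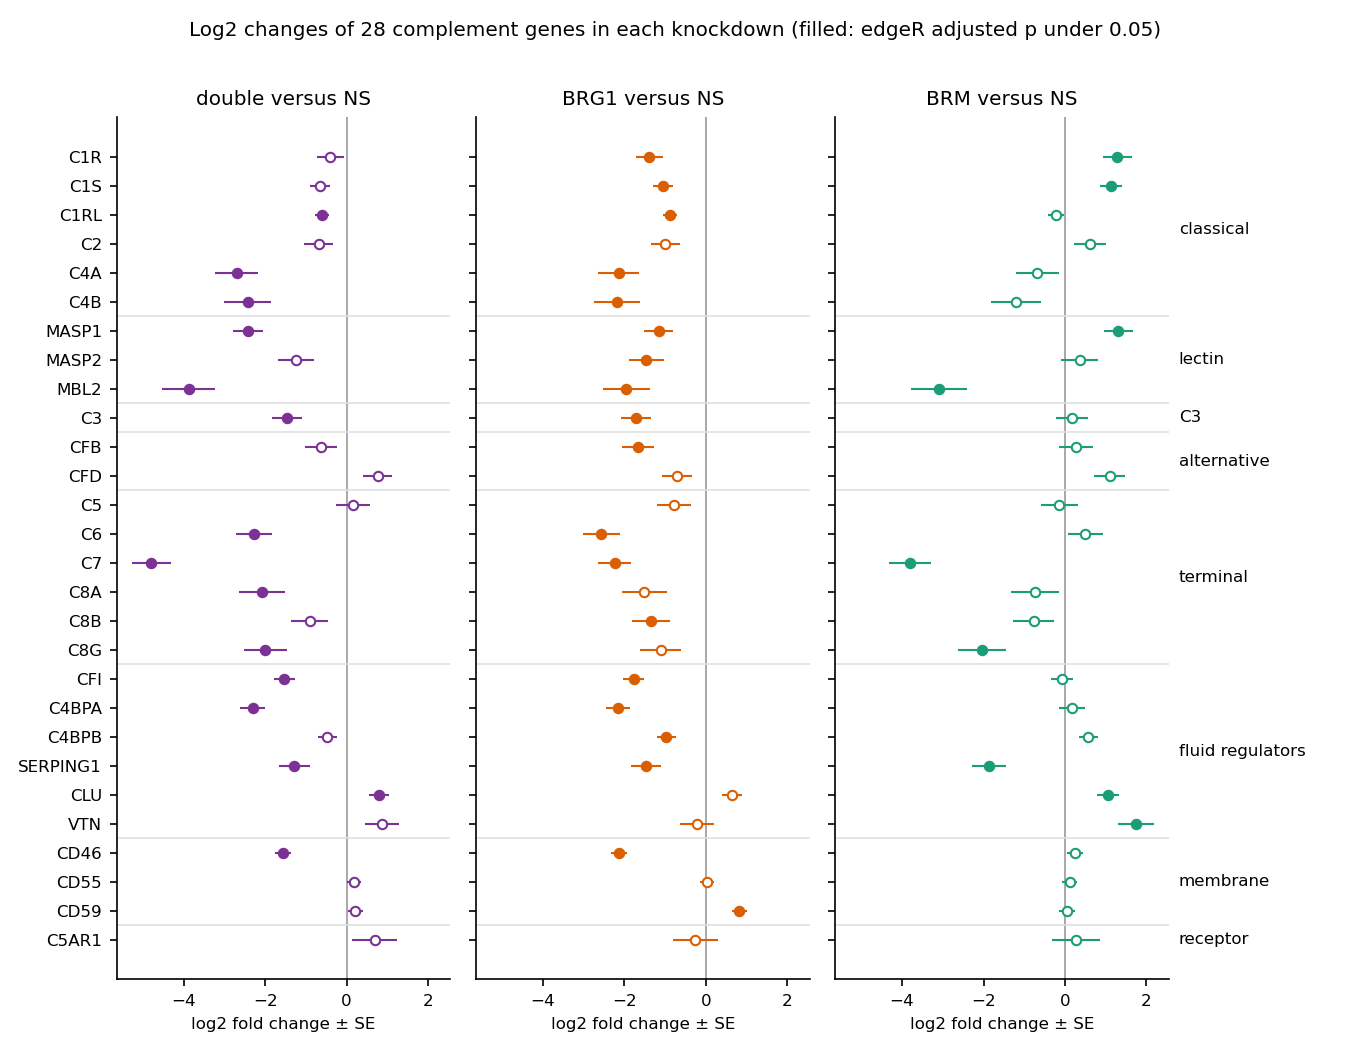
Log2 fold change with its standard error (horizontal axis) of 28 tested complement genes (rows, grouped by role) in the double, BRG1 and BRM knockdowns against NS, with filled points for genes called by edgeR. Points lie mostly left of 0 in the double and BRG1 panels, where 14 and 18 members were called lower, and on both sides in the BRM panel. C3AR1 is left out because it had 0 counts in NS cells.

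Per kilobase of annotated exon, C3 was the most abundant member, at 82.8 CPM per kb in the double knockdown, 69.9 in the BRG1 knockdown, 258 in the BRM knockdown and 229 in NS cells. In NS cells C4A (52.5), CFI (38.1), CLU (31.2), C2 (30.5), VTN (25.2), CFB (23.5) and C5 (22.8) followed. Among tested members with counts in NS cells, C5AR1 (0.238) and C6 (0.349) were lowest there. C3 gave 31.1 to 39.6% of the members' CPM in the double knockdown, 25.2 to 39% in the BRG1 knockdown, 46.5 to 50.3% in the BRM knockdown and 47.5 to 52% in NS cells.

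C3 (chromosome 19, 6677704 to 6730562, minus strand) encodes the protein at which all routes meet. It stood at 636, 613, 472 and 1037 CPM in the double knockdown, 292, 313, 776 and 946 CPM in the BRG1 knockdown, 1709, 2221 and 2527 CPM in the BRM knockdown and 1729, 1482, 2219 and 2202 CPM in NS cells. The double and BRG1 libraries all lay below every NS library, and the BRM libraries overlapped with NS. C3 fell by 1.47 ± 0.37 (log2 change ± SE, used throughout) in the double knockdown (adjusted p = 0.0105, −1.36 and −1.55 by set). C3 fell by 1.71 ± 0.37 in the BRG1 knockdown (adjusted p = 0.00408, −2.41 and −1.36 by set). The BRM change of 0.17 ± 0.39 did not pass (adjusted p = 0.834). In the annotation GPR108 overlaps C3 on the same strand, and the strand setting of the counting is not given. For this and other overlapping genes, reads of neighbours therefore cannot be told apart with certainty.

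In the classical route, C1r and C1s are the proteases of C1, C4 and C2 are their substrates, and C1RL encodes a C1r-like protease. C1S (chromosome 12, 6988259 to 7071032, plus strand) stood at 21.7, 20.5, 12.8 and 22.0 CPM in the double knockdown, 12.1, 12.1, 16.01 and 18.2 CPM in the BRG1 knockdown, 68.8, 77.8 and 52.3 CPM in the BRM knockdown and 41.1, 35.1, 24.7 and 20.4 CPM in NS cells. BRM libraries were all above NS, BRG1 libraries all below NS, and double libraries overlapped with NS. C1S rose by 1.13 ± 0.26 in the BRM knockdown (adjusted p = 0.0106, 0.94 and 1.22 by set). C1S fell by 1.06 ± 0.25 in the BRG1 knockdown (adjusted p = 0.00678, −1.66 and −0.40 by set). The double change was −0.66 ± 0.25, which did not pass (adjusted p = 0.0716, −0.85 and −0.38 by set) but did in libraries 1 and 2. A fit that took the replicate number as a block called it (−0.66, adjusted p = 0.0373).

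C1R (chromosome 12, 7080199 to 7092607, minus strand), 9.17 kb from C1S, stood at 6.23, 6.20, 3.93 and 6.69 CPM in the double knockdown, 2.48, 2.07, 3.96 and 3.14 CPM in the BRG1 knockdown, 19.7, 23 and 13.3 CPM in the BRM knockdown and 11.9, 9.45, 4.89 and 4.23 CPM in NS cells. Its pattern was like that of C1S, with every BRM library above and every BRG1 library below the NS libraries. C1R rose by 1.29 ± 0.35 in the BRM knockdown (adjusted p = 0.0256, 0.995 and 1.55 by set). C1R fell by 1.39 ± 0.34 in the BRG1 knockdown (adjusted p = 0.00894). The BRG1 change differed between the sets, at −2.23 and −0.35, and passed on its own in libraries 1 and 2 but not in libraries 3 and 4. The double change of −0.41 ± 0.33 did not pass (adjusted p = 0.438, −0.78 and 0.21 by set) but did in libraries 1 and 2. The BRM call of C1R was lost without BRM 1, BRM 2, NS 3 or NS 4 (adjusted p = 0.053 to 0.135) and that of C1S without BRM 2 (0.0689). Both were lost when only the BRM and NS libraries were fitted (0.0969 for C1R and 0.0504 for C1S).

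C1RL (chromosome 12, 7089587 to 7109273, minus strand), which overlaps C1R at its end, stood at 36.0, 38.2, 25.3 and 32.8 CPM in the double knockdown, 26.6, 29.8, 26.97 and 26.4 CPM in the BRG1 knockdown, 44.2, 49.8 and 35.5 CPM in the BRM knockdown and 63.5, 53.1, 45.4 and 39.3 CPM in NS cells. The double and BRG1 libraries were all below NS, and BRM overlapped with NS. It fell by 0.61 ± 0.18 in the double knockdown (adjusted p = 0.0222, −0.66 and −0.54 by set). C1RL fell by 0.88 ± 0.18 in the BRG1 knockdown (adjusted p = 0.00243, −1.05 and −0.66 by set). The double call was lost without double 3 or NS 1 (0.059 to 0.0805). C2 (chromosome 6, 31897785 to 31945672, plus strand) stood at 91.8, 94.1, 73.5 and 159.6 CPM in the double knockdown, 42.9, 39.6, 122 and 135 CPM in the BRG1 knockdown, 204, 273 and 299.8 CPM in the BRM knockdown and 169, 153, 181 and 172 CPM in NS cells. C2 was called in none of the knockdowns against NS, with −0.69 ± 0.36 in the double, −0.99 ± 0.36 in the BRG1 and 0.62 ± 0.39 in the BRM knockdown (adjusted p = 0.203, 0.0659 and 0.338). By set the double change was −0.79 and −0.60 and the BRG1 change −1.96 and −0.46, and both passed in libraries 1 and 2. With the replicate block the BRG1 change passed (−1.15, adjusted p = 0.00861).

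C4A (chromosome 6, 31982024 to 32002681, plus strand) and C4B (chromosome 6, 32014795 to 32035418, plus strand) are near-identical copies of the C4 gene, so the division of reads between them is uncertain. C4A stood at 46.7, 46.5, 42.4 and 96.3 CPM in the double knockdown, 25.8, 35, 121 and 162 CPM in the BRG1 knockdown, 189.9, 238 and 281 CPM in the BRM knockdown and 307, 247, 467 and 489 CPM in NS cells. C4B stood at 13.1, 9.51, 7.16 and 40.4 CPM in the double knockdown, 8.56, 7.70, 39.3 and 27.3 CPM in the BRG1 knockdown, 44.8, 47.3 and 30.9 CPM in the BRM knockdown and 112, 102, 91.8 and 72.2 CPM in NS cells. Double and BRG1 libraries lay below every NS library for both copies. C4A fell by 2.70 ± 0.52 in the double knockdown (adjusted p = 0.00181, −2.57 and −2.79 by set). C4A fell by 2.13 ± 0.51 in the BRG1 knockdown (adjusted p = 0.00717, −3.19 and −1.76 by set). BRM libraries overlapped with NS for C4A and lay below NS for C4B, and neither BRM change passed (adjusted p = 0.467 for C4A and 0.219 for C4B). C4B fell by 2.43 ± 0.57 in the double knockdown (adjusted p = 0.00725, −3.24 and −1.81 by set). C4B fell by 2.19 ± 0.57 in the BRG1 knockdown (adjusted p = 0.0119, −3.72 and −1.30 by set). With the counts of both copies summed, the level was 75.5 ± 41.0 CPM in the double knockdown, 106.7 ± 79.7 CPM in the BRG1 knockdown, 277 ± 39.1 CPM in the BRM knockdown and 472 ± 105.6 CPM in NS cells (SD, n = 4, 4, 3 and 4). The summed gene changed by −2.64 ± 0.51 in the double knockdown (adjusted p = 0.00193), by −2.15 ± 0.50 in the BRG1 knockdown (0.00652) and by −0.77 ± 0.53 in the BRM knockdown, which did not pass (0.391).

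Of the lectin route, MBL2 encodes mannose-binding lectin and MASP1 and MASP2 the proteases that bind it. MASP1 (chromosome 3, 187217285 to 187292022, minus strand) stood at 1.20, 1.21, 1.62 and 2.40 CPM in the double knockdown, 2.96, 3.93, 3.13 and 5.50 CPM in the BRG1 knockdown, 13.2, 25.8 and 25.4 CPM in the BRM knockdown and 5.68, 5.28, 10.7 and 13.0 CPM in NS cells. It was the member with opposite calls in the single knockdowns that was also called in the double. MASP1 rose by 1.31 ± 0.36 in the BRM knockdown (adjusted p = 0.0274, 1.83 and 1.09 by set), with all BRM libraries above NS, and fell by 1.16 ± 0.35 in the BRG1 knockdown (adjusted p = 0.0265, −0.68 and −1.46 by set), where BRG1 4 lay within the NS range. It fell by 2.42 ± 0.37 in the double knockdown (adjusted p = 0.000346, −2.18 and −2.59 by set), with all libraries below NS and below the BRG1 libraries. The BRG1 call was lost without BRG1 1, BRG1 2, BRG1 3, NS 3 or NS 4 (0.0517 to 0.0943). The BRM call was lost without BRM 2, BRM 3, NS 1 or NS 2 (0.0733 to 0.152) and when only BRM and NS libraries were fitted (0.0877).

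The interaction, the double change less the sum of the single changes in log2 units, asks whether the double knockdown departs from the sum of the single ones. It was called for 1 member, MASP1, at −2.57 ± 0.51 (adjusted p = 0.0413), where 0.397% of all genes were called with a negative and 0.103% with a positive interaction. The double level of MASP1 was thus below what the single changes add up to. This call was lost in 12 of 15 fits that left out 1 library (adjusted p = 0.0614 to 0.183), and held without double 4, BRM 1 or NS 4.

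MASP2 (chromosome 1, 11026523 to 11047233, minus strand) stood at 4.86, 6.34, 4.11 and 8.81 CPM in the double knockdown, 1.58, 2.79, 7.26 and 9.09 CPM in the BRG1 knockdown, 14.6, 15.05 and 25.4 CPM in the BRM knockdown and 15.2, 12.2, 16.4 and 13.2 CPM in NS cells. Double and BRG1 libraries all lay below NS. It fell by 1.46 ± 0.44 in the BRG1 knockdown (adjusted p = 0.0255, −2.67 and −0.85 by set), a call lost without BRG1 2, NS 1 or NS 3 (0.0512 to 0.0691) and when only BRG1 and NS libraries were fitted (0.0598). Its double change of −1.25 ± 0.43 did not pass (adjusted p = 0.0542, −1.30 and −1.21 by set), but passed within each set and with the replicate block (−1.31, adjusted p = 0.0136). MBL2 (chromosome 10, 52765380 to 52771700, minus strand) stood at 0.437, 0.405, 0.597 and 1.03 CPM in the double knockdown, 1.70, 2.07, 2.13 and 3.59 CPM in the BRG1 knockdown, 0.886, 0.6 and 1.71 CPM in the BRM knockdown and 3.01, 2.48, 15.7 and 15.6 CPM in NS cells. The NS libraries themselves fell apart by number, NS 3 and 4 being above every other library. MBL2 fell by 3.88 ± 0.64 in the double knockdown (adjusted p = 0.000650, −2.69 and −4.30 by set), fell by 1.95 ± 0.58 in the BRG1 knockdown (adjusted p = 0.0244, −0.56 and −2.45 by set) and fell by 3.09 ± 0.69 in the BRM knockdown (adjusted p = 0.00857, −1.92 and −3.19 by set). The BRG1 call was lost without BRG1 1, BRG1 2, BRG1 3, NS 3 or NS 4 (0.0559 to 0.0836), the BRM call without BRM 2 (0.0553), and both when only the groups compared were fitted (0.0554 for BRG1 and 0.059 for BRM). The ficolins FCN1, FCN2 and FCN3, which also start the lectin route, did not pass the filter.

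**Figure D2:**
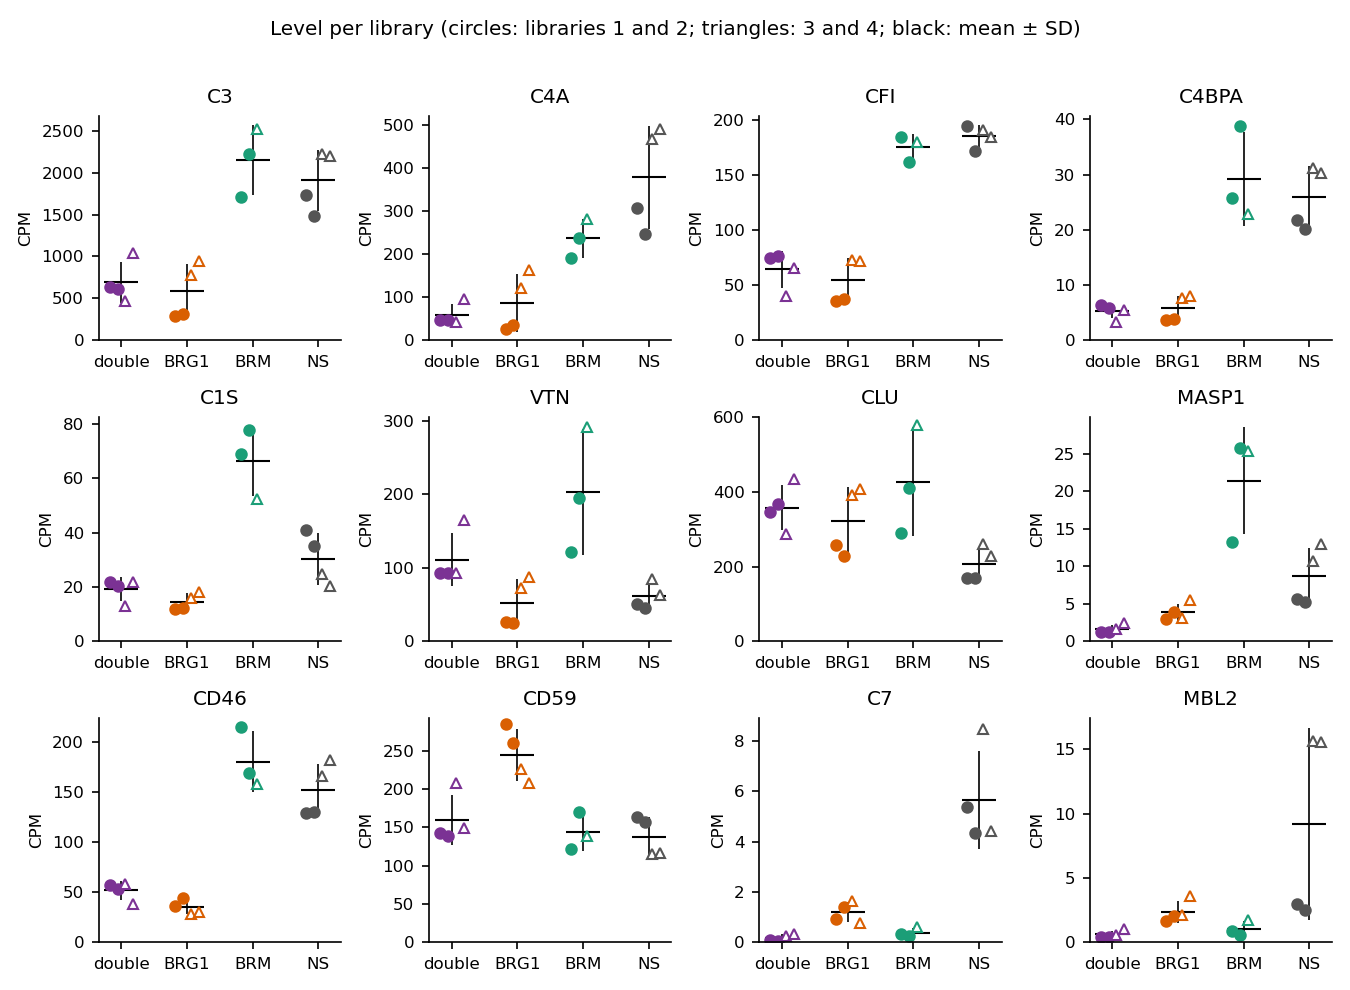
CPM per library (vertical axes, each from 0) of 12 complement genes in the double, BRG1, BRM and NS groups, with circles for libraries 1 and 2, triangles for libraries 3 and 4, and the mean ± SD in black. C3, C4A, CFI, C4BPA and CD46 are low in all double and BRG1 libraries, C1S, VTN and MASP1 have their highest mean in the BRM knockdown, and CD59 is highest in BRG1 libraries.

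Factor B and factor D are the proteases of the alternative route. CFB (chromosome 6, 31945650 to 31952084, plus strand), whose window holds interferon response, STAT and TATA letters, stood at 90.1, 88.2, 35.5 and 90.3 CPM in the double knockdown, 17.0, 18.3, 51.0 and 62.4 CPM in the BRG1 knockdown, 148, 139 and 138 CPM in the BRM knockdown and 114, 103, 124 and 130.1 CPM in NS cells. It fell by 1.66 ± 0.39 in the BRG1 knockdown (adjusted p = 0.00693, −2.62 and −1.16 by set). Every double library was below NS, but the change of −0.63 ± 0.38 did not pass (adjusted p = 0.275, −0.28 and −1.019 by set). It passed in libraries 3 and 4, and double 3 was the lowest double library. The difference between double and BRG1 knockdowns, 1.03 ± 0.39, did not pass either (adjusted p = 0.106). CFD (chromosome 19, 859643 to 863630, plus strand), the rate-limiting protease that cleaves factor B, stood at 2.68, 3.51, 3.62 and 4.98 CPM in the double knockdown, 0.552, 1.09, 2.26 and 1.38 CPM in the BRG1 knockdown, 3.14, 5.25 and 5.53 CPM in the BRM knockdown and 1.84, 2.16, 2.58 and 2.14 CPM in NS cells. It was called against NS in no knockdown, with 0.76 ± 0.36 in the double, −0.72 ± 0.37 in the BRG1 and 1.10 ± 0.38 in the BRM knockdown (adjusted p = 0.153, 0.188 and 0.0720). By set the BRG1 change was −1.30 and −0.36 and the BRM change 1.09 and 1.24, and both passed in libraries 1 and 2. With the replicate block the BRG1 change passed (−0.82, adjusted p = 0.0385). Properdin (CFP), which stabilises the convertase of this route, did not pass the filter.

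The terminal genes C6, C7, C8A, C8B, C8G and C9 encode the proteins that follow C5 into the pore. C5 (chromosome 9, 120952335 to 121050276, minus strand) stood at 196, 176, 97.4 and 198 CPM in the double knockdown, 34.5, 35.4, 123 and 156 CPM in the BRG1 knockdown, 154, 112 and 140.3 CPM in the BRM knockdown and 141, 121, 162 and 173 CPM in NS cells. Over all libraries it was called in no comparison of groups, with 0.16 ± 0.41 in the double, −0.77 ± 0.42 in the BRG1 and −0.14 ± 0.45 in the BRM knockdown (adjusted p = 0.838, 0.212 and 0.890). By set the BRG1 change was −1.91 and −0.26, and it passed in libraries 1 and 2. BRG1 1 and 2 lay below all other libraries, while BRG1 3 and 4 lay within the range of NS. C6 (chromosome 5, 41142234 to 41261438, minus strand) stood at 0.164, 0.270, 0.386 and 0.515 CPM in the double knockdown, 0.197, 0.103, 0.348 and 0.442 CPM in the BRG1 knockdown, 1.37, 2.7 and 2.90 CPM in the BRM knockdown and 1.89, 1.44, 1.94 and 1.35 CPM in NS cells, low in every group. On unscaled totals it reached the filter level in 0 double and 0 BRG1 libraries and entered the test through the BRM and NS libraries. Its double and BRG1 libraries were all below NS, and it fell by 2.27 ± 0.45 in the double knockdown (adjusted p = 0.00217, −2.95 and −1.85 by set). C6 fell by 2.57 ± 0.45 in the BRG1 knockdown (adjusted p = 0.000997, −3.39 and −2.02 by set). The BRM change of 0.50 ± 0.43 did not pass (adjusted p = 0.517).

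C7 (chromosome 5, 40909252 to 40982939, plus strand), 159 kb from C6 on chromosome 5, stood at 0.109, 0.0674, 0.246 and 0.343 CPM in the double knockdown, 0.947, 1.40, 1.65 and 0.786 CPM in the BRG1 knockdown, 0.322, 0.25 and 0.599 CPM in the BRM knockdown and 5.39, 4.32, 8.49 and 4.42 CPM in NS cells. It passed the filter through the BRG1 and NS libraries. Every knockdown library lay below every NS library. C7 fell by 4.79 ± 0.48 in the double knockdown (adjusted p = 1.44e-05, −5.66 and −4.44 by set), fell by 2.23 ± 0.41 in the BRG1 knockdown (adjusted p = 0.00126, −2.06 and −2.37 by set) and fell by 3.81 ± 0.51 in the BRM knockdown (adjusted p = 0.000308, −4.09 and −3.40 by set). The double knockdown was lower than the BRG1 knockdown by 2.56 ± 0.47 (adjusted p = 0.00291) and differed from the BRM knockdown by −0.99 ± 0.53, which did not pass (adjusted p = 0.223). The neighbour C6 was called in the same direction in the double and BRG1 knockdowns, whereas its BRM libraries overlapped with NS.

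C8A (chromosome 1, 56854806 to 56918221, plus strand), which encodes the alpha chain of C8, stood at 1.09, 1.08, 0.562 and 1.26 CPM in the double knockdown, 0.434, 0.362, 2.48 and 2.60 CPM in the BRG1 knockdown, 2.10, 3 and 2.40 CPM in the BRM knockdown and 3.01, 2.72, 6.18 and 4.88 CPM in NS cells. It fell by 2.08 ± 0.57 in the double knockdown (adjusted p = 0.0176, −1.40 and −2.64 by set), a call lost without double 3 or NS 3 (0.0512 to 0.0559). Its BRG1 change of −1.51 ± 0.55 did not pass (adjusted p = 0.0655, −2.82 and −1.11 by set) but passed within each set and with the replicate block (−1.67, adjusted p = 0.0150). C8B (chromosome 1, 56929210 to 56966140, minus strand), which encodes the beta chain and lies 11 kb from C8A, stood at 1.64, 1.48, 0.667 and 1.09 CPM in the double knockdown, 0.592, 0.258, 1.57 and 1.13 CPM in the BRG1 knockdown, 1.21, 1.85 and 0.922 CPM in the BRM knockdown and 2.48, 2.72, 2.03 and 1.86 CPM in NS cells. It fell by 1.35 ± 0.46 in the BRG1 knockdown (adjusted p = 0.0490, −2.55 and −0.52 by set), and its libraries were below NS in all 3 knockdowns. The double change of −0.90 ± 0.46 did not pass (adjusted p = 0.183, −0.73 and −1.17 by set) but did in libraries 3 and 4. The BRG1 call was lost when any of 11 libraries was left out (double 1, 2 or 4, BRG1 1, 2 or 4, BRM 1 or any NS library, adjusted p = 0.0511 to 0.123), when only BRG1 and NS libraries were fitted (0.0822) and with no filter on low counts (0.0778).

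C8G (chromosome 9, 136945185 to 136946975, plus strand), which encodes the gamma chain, stood at 0.437, 0.202, 0.351 and 0.458 CPM in the double knockdown, 0.237, 0.310, 1.09 and 1.08 CPM in the BRG1 knockdown, 0.403, 0.15 and 0.507 CPM in the BRM knockdown and 1.16, 1.84, 1.57 and 1.35 CPM in NS cells. It passed the filter through the NS libraries, where it was highest. C8G fell by 1.996 ± 0.53 in the double knockdown (adjusted p = 0.0140, −2.15 and −1.85 by set) and fell by 2.05 ± 0.59 in the BRM knockdown (adjusted p = 0.0327, −2.50 and −1.500 by set). The BRM call was lost without BRM 1, BRM 2, NS 2, NS 3 or NS 4 (0.0529 to 0.148). Its BRG1 change of −1.11 ± 0.50 did not pass (adjusted p = 0.132, −2.42 and −0.41 by set) but did in libraries 1 and 2 and with the replicate block (−1.28, adjusted p = 0.0415). C9, which forms the wall of the pore, had 1 count over all 15 libraries.

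Among the soluble regulators, factor I (CFI) is the protease that cleaves C3b and C4b, and C4b-binding protein (C4BPA and C4BPB) is a cofactor for it. CFI (chromosome 4, 109740694 to 109802179, minus strand) stood at 74.8, 76.6, 40.0 and 65.8 CPM in the double knockdown, 35.6, 37.6, 72.7 and 71.5 CPM in the BRG1 knockdown, 185, 162 and 179.5 CPM in the BRM knockdown and 195, 172, 191 and 184 CPM in NS cells. Double and BRG1 libraries were all below every NS library, and BRM libraries overlapped with NS. CFI fell by 1.53 ± 0.25 in the double knockdown (adjusted p = 0.000661, −1.28 and −1.83 by set). CFI fell by 1.77 ± 0.26 in the BRG1 knockdown (adjusted p = 0.000241, −2.32 and −1.38 by set), and the BRM change was −0.08 ± 0.27 (adjusted p = 0.892). C4BPA (chromosome 1, 207104262 to 207144972, plus strand), whose window holds the HNF1 letters, stood at 6.34, 5.80, 3.34 and 5.55 CPM in the double knockdown, 3.71, 3.93, 7.61 and 7.96 CPM in the BRG1 knockdown, 25.8, 38.9 and 22.9 CPM in the BRM knockdown and 21.8, 20.1, 31.3 and 30.3 CPM in NS cells. It fell by 2.30 ± 0.31 in the double knockdown (adjusted p = 0.000131, −1.78 and −2.81 by set). C4BPA fell by 2.15 ± 0.30 in the BRG1 knockdown (adjusted p = 0.000194, −2.46 and −1.98 by set). The BRM change was 0.18 ± 0.31 (adjusted p = 0.784, 0.63 and −0.43 by set) and passed in libraries 1 and 2. C4BPB (chromosome 1, 207088842 to 207099993, plus strand), 4.27 kb away, stood at 40.8, 33.9, 22.9 and 30.0 CPM in the double knockdown, 16.8, 17.6, 27.02 and 28.7 CPM in the BRG1 knockdown, 72.0, 79.9 and 46.3 CPM in the BRM knockdown and 41.7, 50.9, 43.5 and 41.2 CPM in NS cells. It fell by 0.97 ± 0.23 in the BRG1 knockdown (adjusted p = 0.00706, −1.42 and −0.60 by set), and the double change of −0.47 ± 0.23 did not pass (adjusted p = 0.161, −0.31 and −0.68 by set) but did in libraries 3 and 4. The BRM change of 0.58 ± 0.24 did not pass (adjusted p = 0.141, 0.72 and 0.13 by set) but did in libraries 1 and 2.

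SERPING1 (chromosome 11, 57597387 to 57614853, plus strand) encodes C1 inhibitor, which blocks C1r, C1s and the MASP proteases. It stood at 5.30, 6.34, 3.62 and 7.67 CPM in the double knockdown, 5.64, 3.98, 5.61 and 4.82 CPM in the BRG1 knockdown, 2.42, 3.15 and 5.72 CPM in the BRM knockdown and 21.8, 17.6, 9.22 and 6.88 CPM in NS cells. SERPING1 fell by 1.28 ± 0.37 in the double knockdown (adjusted p = 0.0227, −1.77 and −0.52 by set), fell by 1.47 ± 0.37 in the BRG1 knockdown (adjusted p = 0.0104, −2.03 and −0.61 by set) and fell by 1.87 ± 0.42 in the BRM knockdown (adjusted p = 0.00872, −2.81 and −0.48 by set). All BRG1 and BRM libraries were below NS, and double 4 lay within the NS range. NS 1 and 2 stood above NS 3 and 4, and within libraries 3 and 4 neither the double nor the BRG1 change passed (adjusted p = 0.227 and 0.179), nor did the BRM change, which rests on BRM 3 alone (0.413). The double call was lost without double 3, NS 1 or NS 2 (0.0511 to 0.0851), and the BRM call when only BRM and NS libraries were fitted (0.054).

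Clusterin (CLU) and vitronectin (VTN) are plasma proteins that keep the terminal complex out of membranes. CLU (chromosome 8, 27596917 to 27615031, minus strand) stood at 345, 366, 286 and 434 CPM in the double knockdown, 259, 228, 392 and 407 CPM in the BRG1 knockdown, 289.8, 410.4 and 579 CPM in the BRM knockdown and 168, 169, 260.2 and 228 CPM in NS cells. All double and BRM libraries were above NS. CLU rose by 0.79 ± 0.25 in the double knockdown (adjusted p = 0.0362, 1.08 and 0.56 by set) and by 1.05 ± 0.27 in the BRM knockdown (adjusted p = 0.0187, 1.05 and 1.25 by set). The BRG1 change of 0.64 ± 0.25 did not pass (adjusted p = 0.0859, 0.53 and 0.71 by set) but passed within each set and with the replicate block (0.62, adjusted p = 0.0144). The double call of CLU was lost without double 1, 2 or 4, BRM 2 or NS 1, 2 or 4 (0.0568 to 0.127) and with no filter on low counts (0.0693), and the BRM call without BRM 2, BRM 3, NS 1 or NS 2 (0.0531 to 0.124) and when only BRM and NS libraries were fitted (0.0693).

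VTN (chromosome 17, 28367276 to 28373091, minus strand) stood at 92.9, 92.9, 93.5 and 165 CPM in the double knockdown, 25.6, 24.5, 72.8 and 87.5 CPM in the BRG1 knockdown, 122, 195 and 292 CPM in the BRM knockdown and 50.4, 45.3, 85.0 and 63.3 CPM in NS cells. It rose by 1.74 ± 0.44 in the BRM knockdown (adjusted p = 0.0177, 1.73 and 1.98 by set), with every BRM library above NS. That call was lost without BRM 2, BRM 3 or NS 2 (0.0582 to 0.0875). Double libraries were also all above NS, with a change of 0.86 ± 0.41 that did not pass (adjusted p = 0.156, 0.95 and 0.80 by set) but passed within each set and with the replicate block (0.87, adjusted p = 0.0193). BRG1 libraries overlapped with NS (−0.21 ± 0.41, adjusted p = 0.774, −0.93 and 0.11 by set), and their change passed in libraries 1 and 2.

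Of the membrane regulators, CD46 is a cofactor for factor I, CD55 takes convertases apart and CD59 blocks the pore. CD46 (chromosome 1, 207752057 to 207795513, plus strand) stood at 57.3, 53.6, 58.4 and 38.1 CPM in the double knockdown, 36.5, 44.1, 28.8 and 30.2 CPM in the BRG1 knockdown, 215, 169 and 158 CPM in the BRM knockdown and 129, 130.5, 166 and 182 CPM in NS cells. The double and BRG1 libraries were all below NS, and BRM libraries overlapped with NS. CD46 fell by 1.55 ± 0.20 in the double knockdown (adjusted p = 7.99e-05, −1.23 and −1.85 by set). CD46 fell by 2.12 ± 0.20 in the BRG1 knockdown (adjusted p = 9.03e-06, −1.69 and −2.56 by set). The BRM change was 0.25 ± 0.21 (adjusted p = 0.492, 0.56 and −0.14 by set) and passed in libraries 1 and 2.

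CD59 (chromosome 11, 33703010 to 33736491, minus strand), with AP-1 letters in 1 of its 4 windows, stood at 143, 139, 208 and 149 CPM in the double knockdown, 284, 259.7, 226 and 208 CPM in the BRG1 knockdown, 122, 169.6 and 139 CPM in the BRM knockdown and 163, 157, 115 and 117 CPM in NS cells. BRG1 libraries were all above those of the other groups, and double and BRM libraries overlapped with NS. CD59 rose by 0.82 ± 0.19 in the BRG1 knockdown (adjusted p = 0.00522, 0.77 and 0.90 by set), while the double change was 0.21 ± 0.18 (adjusted p = 0.477, −0.18 and 0.62 by set, passing in libraries 3 and 4) and the BRM change 0.06 ± 0.20 (adjusted p = 0.902). CD55 (chromosome 1, 207321376 to 207386804, plus strand), 365 kb from CD46 on chromosome 1, stood at 20.2, 21.7, 18.4 and 15.2 CPM in the double knockdown, 20.4, 15.3, 13.5 and 18.7 CPM in the BRG1 knockdown, 17.8, 21.4 and 14.8 CPM in the BRM knockdown and 18.1, 16.1, 14.3 and 18.0 CPM in NS cells. Its groups overlapped throughout, with changes of 0.18 ± 0.18 in the double, 0.03 ± 0.18 in the BRG1 and 0.11 ± 0.19 in the BRM knockdown (adjusted p = 0.526, 0.939 and 0.773).

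The receptors C3AR1 and C5AR1 bind the fragments C3a and C5a and are best known from myeloid cells. C3AR1 (chromosome 12, 8058302 to 8066471, minus strand) had 3, 0, 7 and 8 counts in the double libraries, 17, 15, 15 and 9 counts in the BRG1 libraries and 0 counts in every BRM and NS library. It passed the filter only through the BRG1 libraries, where it reached 0.671, 0.776, 0.653 and 0.442 CPM. With the NS group set to a floor of 3 counts in total, the ratio to NS cells was 4.97 in the double knockdown (edgeR adjusted p = 0.0219). The same ratio was 13.9 in the BRG1 knockdown (edgeR adjusted p = 0.00373). The floor allows for counting error in the NS group only, and the knockdown counts were taken as observed. The double call was lost without double 3 (0.0527). The difference between double and BRG1 knockdowns did not pass (adjusted p = 0.218). Of the 8 myeloid markers, CSF1R, CD163, ITGAM and AIF1 did not pass the filter. Of the other 4, CD68 rose (0.90 ± 0.24, adjusted p = 0.0159) and LYZ fell (−1.71 ± 0.43, adjusted p = 0.0111) in the double knockdown, PTPRC and CD14 were not called there, and 0 were called in the BRG1 knockdown with edgeR (adjusted p = 0.422 to 0.961), none with an unadjusted p under 0.05. C5AR1 (chromosome 19, 47290023 to 47322066, plus strand) stood at 1.53, 1.35, 0.878 and 0.858 CPM in the double knockdown, 0.552, 1.09, 0.304 and 0.442 CPM in the BRG1 knockdown, 0.886, 0.85 and 0.830 CPM in the BRM knockdown and 1.02, 1.28, 0.0922 and 0.418 CPM in NS cells. Over all libraries it was called in no comparison, with 0.69 ± 0.55 in the double, −0.26 ± 0.56 in the BRG1 and 0.27 ± 0.60 in the BRM knockdown (adjusted p = 0.423, 0.804 and 0.834). By set the double change was 0.34 and 1.55, and it passed in libraries 3 and 4.

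The 9 members that did not pass the filter were C9, CFP, the factor H-related genes CFHR2, CFHR3, CFHR4 and CFHR5, and the ficolins FCN1, FCN2 and FCN3. None had more than 5 counts in a library, and the largest total over all 15 libraries was 36 counts, for FCN1. CFHR4 and FCN2 had 0 counts in every library. Changes in these genes were not detectable at this depth.

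The single knockdowns were compared with each other to ask where BRG1 and BRM differ. Of the 29 tested members 16 were lower and 3 higher in the BRG1 than in the BRM knockdown, where 16.7% and 17.2% of all genes were called in those directions. Those higher in the BRG1 knockdown were C7 (1.57 ± 0.48, adjusted p = 0.0202), CD59 (0.77 ± 0.20, adjusted p = 0.00884) and C3AR1. The C3AR1 ratio was 11.5 with the BRM group set to the floor of 3 counts. C7 and C3AR1 reached the filter level in 0 BRM libraries, and C6, among the 16 lower, in 0 BRG1 libraries. C6 had the largest fall among the 16, 3.07 ± 0.47 (adjusted p = 0.000165), followed by C1R at −2.67 ± 0.36, MASP1 at −2.47 ± 0.37 and CD46 at −2.37 ± 0.21 (adjusted p = 6.74e-05, 0.000154 and 1.86e-06). VTN, at −1.95 ± 0.44 (adjusted p = 0.00334), and CFD, at −1.82 ± 0.39 (adjusted p = 0.00214), were also lower in the BRG1 knockdown although neither was called there against NS. The same held for C2 at −1.61 ± 0.39 (adjusted p = 0.00514). Calls lost when a library was left out were those of C4A (without double 1, 2 or 3, BRG1 1 or 2, any BRM library, NS 1 or NS 3, adjusted p = 0.0503 to 0.115), C7 (without BRG1 3, BRM 1 or BRM 2, 0.0513 to 0.0942) and C1RL (without BRM 2, 0.0651). The C4A call was also lost when only BRG1 and BRM libraries were fitted (0.1054), and the sum of C4A and C4B did not pass (−1.38 ± 0.52, adjusted p = 0.0521).

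The double knockdown was set against the BRG1 knockdown to ask what the BRM hairpin adds. SMARCA4 itself was higher in the double than in the BRG1 knockdown, by 0.73 ± 0.16 (adjusted p = 0.00858), so that the groups also differ in how far BRG1 was depleted. Here 3 members were lower and 1 higher in the double, where 6.72% and 4.1% of all genes were called in those directions. With 29 members tested, both counts are near these shares. The lower ones were C7 at −2.56 ± 0.47, MASP1 at −1.26 ± 0.36 and CD59 at −0.62 ± 0.19 (adjusted p = 0.00291, 0.0376 and 0.0463), and the higher one was CFD at 1.48 ± 0.37 (adjusted p = 0.0180). C7 reached the filter level in 0 double libraries. The CD59 call was lost when any of 11 libraries was left out (double 1, 2 or 4, BRG1 1, 2 or 3, BRM 2 or 3, or NS 1, 2 or 3, adjusted p = 0.0502 to 0.138), with no filter on low counts (0.0907) and when only the double and BRG1 libraries were fitted (0.0588). MASP1 was lost without double 1, 2 or 3, BRG1 2 or 4 or BRM 2 (0.0534 to 0.113) and with no filter (0.0534). CFD was lost without BRG1 2 (0.0563) and with those groups alone (0.0574). MBL2 had every double library below every BRG1 library, at −1.92 ± 0.62, which did not pass (adjusted p = 0.0616).

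Against the BRM knockdown, 12 members were lower and 1 higher in the double knockdown, where 9.74% and 9.32% of all genes were called in those directions. Among the 12 were MASP1 at −3.73 ± 0.40, C6 at −2.78 ± 0.47, C4BPA at −2.48 ± 0.32, CD46 at −1.80 ± 0.21 and C1S at −1.79 ± 0.26 (adjusted p = 2.4e-05, 0.000771, 0.000112, 4.56e-05 and 0.000305). The others were C1R, C2, C3, C4A, CFI, MASP2 and C4BPB. C3AR1 was the member that was higher, with a ratio of 4.1 when the BRM group was set to the floor of 3 counts. It reached the filter level in 0 libraries of either group. C6 reached it in 0 double libraries. The C2 call was lost without double 1, 2 or 3 or BRM 2 or 3 (adjusted p = 0.0712 to 0.0912), that of MASP2 without double 1, 2 or 3 or BRM 3 (0.0503 to 0.106), and that of C3AR1 without double 1, 3 or 4 or any BRM library (0.0554 to 0.0909).

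Within libraries 1 and 2 the BRG1 knockdown had 22 members lower and 3 higher than NS, against 18.8% and 21.7% of all genes, and within libraries 3 and 4 it had 13 lower and 3 higher, against 12% and 15.3% of all genes. Of the 28 members plotted 23 had the lower BRG1 value in libraries 1 and 2, a share that was not counted over all genes. The BRG1 effect in libraries 1 and 2 less that in libraries 3 and 4 had a median of −1.05 over the 29 tested members. Over all genes tested this median was −0.06. For the double effect the medians were 0.15 and −0.07. The double knockdown had 18 lower and 2 higher within libraries 1 and 2 (15% and 15.5% of all genes) and 17 lower and 5 higher within libraries 3 and 4 (16% and 20.1%). The BRM knockdown had 4 lower and 9 higher within libraries 1 and 2 (13.9% and 15.8%), and 2 lower and 5 higher within libraries 3 and 4 (8.23% and 14.7%), where the calls rest on BRM 3 alone. The BRG1 calls that did not pass within libraries 3 and 4 were those of C1R, C1S, C4B, C8B, MASP2 and SERPING1, and those that did not pass within libraries 1 and 2 were MASP1 and MBL2. With BRM 3 alone, the BRM changes of C8G and SERPING1 did not pass within libraries 3 and 4. In the double knockdown SERPING1 did not pass within libraries 3 and 4, nor C3AR1 within libraries 1 and 2.

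**Figure D3:**
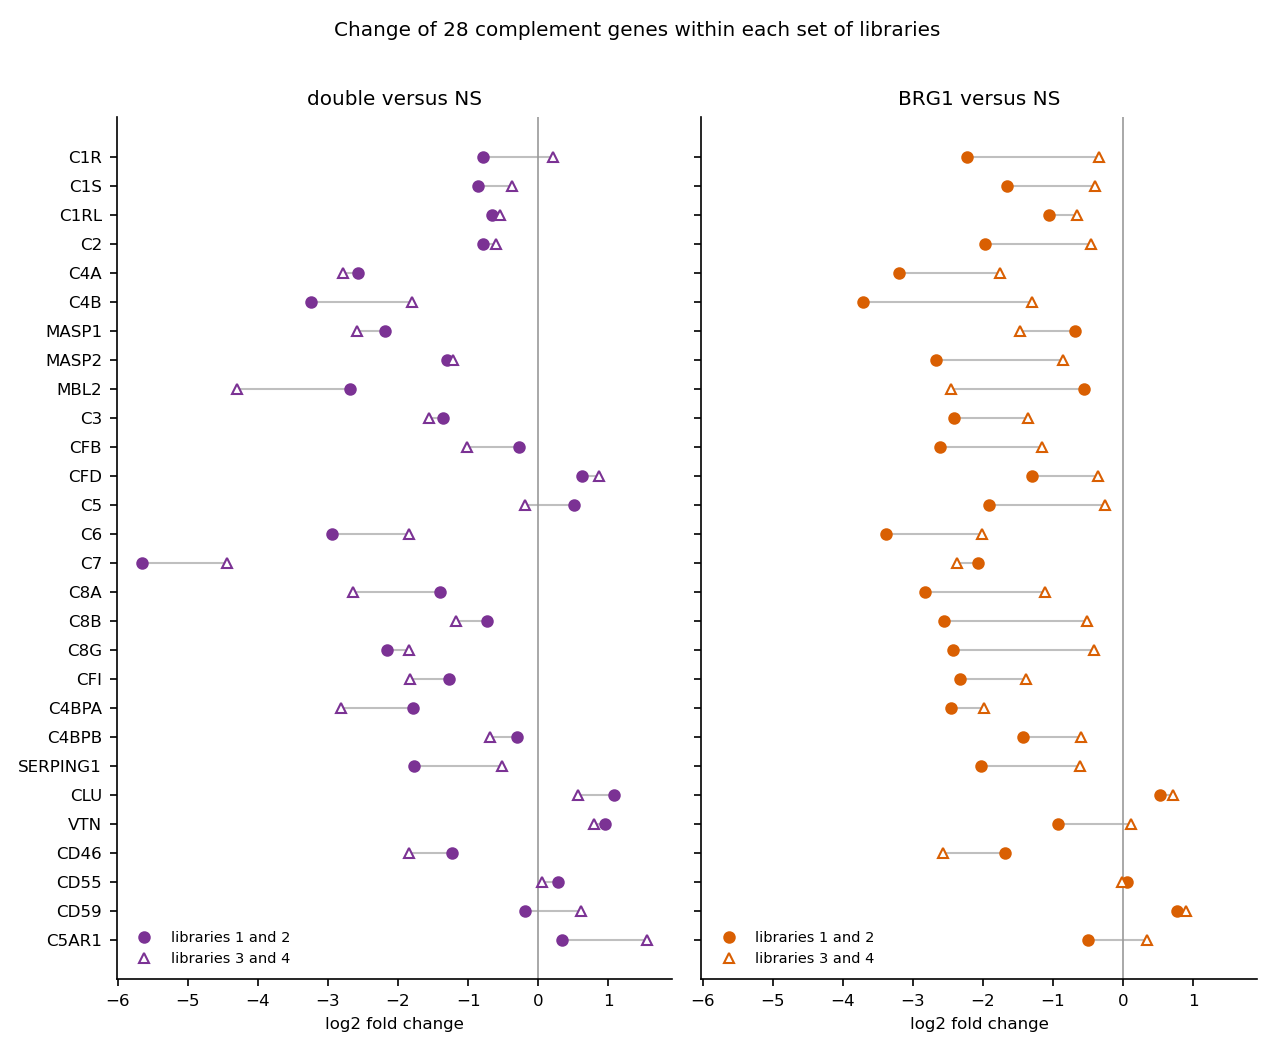
Log2 fold change (horizontal axis) of 28 complement genes (rows) in the double and BRG1 knockdowns against NS, within libraries 1 and 2 (circles) and within libraries 3 and 4 (open triangles). In the BRG1 panel 23 of 28 genes lie further left in libraries 1 and 2, against 13 of 28 in the double panel. These shares were not counted over all genes.

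The difference between the sets in the BRG1 effect was called for 4 members, 3 negative and 1 positive, where 1.54% and 0.951% of all genes were called in those directions. C1R fell more in libraries 1 and 2 by 1.88 ± 0.38, C5 by 1.64 ± 0.38 and C1S by 1.26 ± 0.30 (adjusted p = 0.0260, 0.0445 and 0.0475), and MBL2 fell less there, by 1.89 ± 0.45 (adjusted p = 0.0460). Each of these calls was lost when any BRG1 or NS library was left out, and those of C5, C1S and MBL2 also without double 1 or double 2 (adjusted p = 0.0513 to 0.236 over the 4). With the replicate block the calls of C1S and MBL2 were lost (adjusted p = 0.0686 and 0.0547). The same difference in the double effect was called for 0 members with edgeR, where 3.71% of all genes were called, and for 1 with DESeq2. In edgeR 7 members had an unadjusted p under 0.05, as did 20.1% of all genes.

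Other genes of complement were read from a list of 27, of which 12 passed the filter. Of these, 2 were higher and 1 lower in the double knockdown than in NS cells. In the BRG1 knockdown 2 were higher and 4 lower, and in the BRM knockdown 2 were higher. The shares of all genes called higher and lower were 11.8% and 9.9% in the double, 12.5% and 9.97% in the BRG1 and 7.66% and 6.26% in the BRM knockdown. CPB2, a carboxypeptidase that inactivates C3a and C5a, averaged 16.7 ± 3.40 CPM in the double knockdown, 13.0 ± 10.3 CPM in the BRG1 knockdown and 52.0 ± 6.68 CPM in NS cells (SD, n = 4 each), and fell by 1.64 ± 0.46 in the double and fell by 2.0 ± 0.47 in the BRG1 knockdown (adjusted p = 0.0195 and 0.00645). CPN1, the catalytic chain of carboxypeptidase N with a similar action, rose by 2.17 ± 0.70 in the double and by 2.34 ± 0.74 in the BRM knockdown (adjusted p = 0.0385 and 0.0476). CPN2, its other chain, fell by 1.67 ± 0.40 in the BRG1 knockdown (adjusted p = 0.00817). ITGB2, the beta chain of complement receptor integrins, stood at 30.1, 49.4 and 31.3 CPM in the BRM knockdown and 6.26, 5.20, 6.09 and 4.69 CPM in NS cells, a rise of 2.73 ± 0.28 (adjusted p = 5.08e-05). In the BRG1 knockdown it was at 1.30, 1.499, 2.31 and 2.41 CPM, a change of −1.56 ± 0.27 (adjusted p = 0.000863). The integrin alpha chain ITGAM did not pass the filter. FURIN, a proprotein convertase, was higher by 1.34 ± 0.18 in the double and 0.67 ± 0.18 in the BRG1 knockdown (adjusted p = 0.000131 and 0.0133), and CSMD3, a membrane protein with complement-control domains, by 3.08 ± 0.65 in the BRG1 knockdown (adjusted p = 0.00359). CALR, an endoplasmic reticulum chaperone that can bind C1q, named after its values were seen to complete a small count, fell by 0.85 ± 0.26 in the BRG1 knockdown (adjusted p = 0.0284). C1QA, C1QB, C1QC, VSIG4, COLEC10 and CRP had 0 counts in every library.

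Of 31 transcription factors and receptors known to act on complement genes, 30 passed the filter. Of these, 5 were higher and 5 lower in the double knockdown than in NS cells. In the BRG1 knockdown 3 were higher and 7 lower, and in the BRM knockdown 1 was higher and 2 lower. Read against the same shares of all genes, the 3 higher in the BRG1 knockdown and the 3 called in the BRM knockdown are near or below the background. NR1H4, the bile acid receptor FXR, stood at 18.4, 18.9, 8.78 and 13.6 CPM in the double knockdown, 3.63, 2.69, 9.14 and 10.4 CPM in the BRG1 knockdown, 129.9, 111 and 79.2 CPM in the BRM knockdown and 37.3, 39.8, 51.4 and 43.8 CPM in NS cells. It fell by 1.53 ± 0.37 in the double knockdown (adjusted p = 0.00870) and by 2.73 ± 0.39 in the BRG1 knockdown (adjusted p = 0.000213) and rose by 1.31 ± 0.39 in the BRM knockdown (adjusted p = 0.0365). PPARA, a fatty acid-sensing receptor, fell by 1.37 ± 0.19 in the double and 0.90 ± 0.19 in the BRG1 knockdown (adjusted p = 0.000178 and 0.00324), and IL1RAP, the accessory chain of the interleukin-1 receptor, fell by 1.47 ± 0.30 in the double and by 1.67 ± 0.30 in the BRG1 knockdown (adjusted p = 0.00297 and 0.00127). The pioneer factor FOXA1 fell by 0.89 ± 0.19 in the BRG1 knockdown (adjusted p = 0.00334). SOCS3, an inhibitor of interleukin-6 signalling, rose by 2.32 ± 0.33 in the double and by 1.33 ± 0.32 in the BRG1 knockdown and fell by 1.28 ± 0.38 in the BRM knockdown (adjusted p = 0.000186, 0.0081 and 0.0369). RELB, an NF-kB subunit, rose by 2.22 ± 0.40 in the double and by 1.60 ± 0.39 in the BRG1 knockdown (adjusted p = 0.00112 and 0.00837). IL1R1, the interleukin-1 receptor, fell by 1.35 ± 0.24 in the BRM knockdown (adjusted p = 0.00202). Their part in the changes of complement genes was not tested.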

How the data were processed

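RNA sequencing of 15 HepG2 libraries was used. The deposited values are estimated counts per gene, made by the authors with kallisto on GRCh38, per the submitters' processing notes, which also name DESeq2. The sources used here do not name versions, the annotation or a strand setting, and the authors' own comparison tables were not used. The deposited estimated counts were already whole numbers and were used without rounding.

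The members and all gene lists were chosen with earlier results of these data known. Genes were filtered with filterByExpr (minimum count 10, minimum total 15), leaving 14621, scaled by TMM and fitted with edgeR 4.0.16 (robust quasi-likelihood F test, R 4.3.3) over all 15 libraries by group. Adjusted p-values are Benjamini-Hochberg over these genes. The standard error is the log2 change divided by the root of F. Contrasts within libraries 1 and 2 or 3 and 4, and their difference, came from a fit by group and set. Alternatives were DESeq2 1.42.0, RLE scaling, no filter, only the groups compared, a set term, a replicate block, C4A and C4B summed, and leaving out each library. The fit by group was tested on simulated data, which held no split between libraries 1 and 2 and libraries 3 and 4. Gene positions are GENCODE v29 (GRCh38).

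All tested members are named. From the other complement genes and the regulating factors, up to 4 called genes with the smallest adjusted p are named per knockdown. Total counts ran from 11500149 to 27187991, and the fold-change bounds of C3AR1 cover counting error only.

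Replicate numbers were checked for pairing by correlating same-numbered deviations from group means. Correlations were 0.179 to 0.454 for double and NS, 0.427 to 0.565 for BRG1 and NS, and 0.104 to 0.532 for BRG1 and BRM, so these were taken as paired. In the other comparisons at least 1 pair fell under 0.1 (0.058 for double and BRG1, 0.013 for double and BRM, 0.073 for BRM and NS). The main fit holds no block, so its calls and adjusted p-values use no pairing by number in any comparison. Fits with the replicate number as a block are given only as an alternative.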

Additional observations from a re-analysis of the deposited data

Results flagged for a closer look

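A test for a library far from the rest of its group (Dixon's test at 95%) was run on 86 groups of 4 libraries and marked 6, where chance marks about 1 in 20 groups. Double 3 was far below the other double libraries for C1S (12.8 CPM) and CFB (35.5 CPM) and far above them for CD59 (208 CPM). Double 4 was far above the other double libraries for C4A (96.3 CPM) and VTN (165 CPM). BRG1 2 was only just marked for C1RL, at 29.8 CPM against 26.97 CPM in the nearest BRG1 library.

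The change in the double knockdown was called as departing from the sum of the single knockdowns for MASP1 (interaction −2.57, edgeR adjusted p = 0.0413). That call was lost in 12 of 15 fits that left out 1 library. The BRG1 effect differed between libraries 1 and 2 and libraries 3 and 4 for C1R (−1.88), C1S (−1.26), C5 (−1.64) and MBL2 (1.89), with edgeR adjusted p = 0.0260, 0.0475, 0.0445 and 0.0460. Each of these set differences was lost when any BRG1 or NS library was left out. With the replicate number as a block, the differences of C1S and MBL2 did not pass (adjusted p = 0.0686 and 0.0547).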

How the results depend on the processing

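No change or difference called in the main fits reversed in an alternative fit or within a set. Some changes not called over all libraries did differ in sign between the sets, with 1 side called. By set, these included VTN in the BRG1 knockdown (−0.93 and 0.11). In the double knockdown they included C1R (−0.78 and 0.21) and CD59 (−0.18 and 0.62). In the BRM knockdown, with BRM 3 alone in libraries 3 and 4, they included C4BPA (0.63 and −0.43) and CD46 (0.56 and −0.14). Leaving out 1 library at a time, the members called numbered 12 to 17 in double versus NS, 15 to 22 in BRG1 versus NS, 2 to 10 in BRM versus NS, 16 to 19 in BRG1 versus BRM, 1 to 6 in double versus BRG1, 10 to 13 in double versus BRM, 0 to 1 for the interaction, 0 to 17 for the set difference in the BRG1 effect and 0 to 6 for that in the double effect. Over all genes the calls numbered 2316 to 3325, 2384 to 3454, 959 to 2063, 3929 to 4990, 934 to 1714, 1951 to 2799, 38 to 166, 24 to 1649 and 160 to 1531 in the same order. Fitting only the groups compared gave 4 members in BRM versus NS. Double versus BRG1 gave 7 with DESeq2, 2 with no filter, 10 with a set term and 7 with the replicate block. Over all genes these fits called 2344, 1179, 3728 and 3259 in that order. The interaction gave 2 with DESeq2 and 3 with the set term. The set difference in the BRG1 effect gave 11 with DESeq2, 16 with no filter and 2 with the block, which lost C1S and MBL2 (adjusted p = 0.0686 and 0.0547), and that in the double effect gave 1 with DESeq2 and 3 with no filter. The cause was not tested. The block gained CFD in BRM versus NS, MBL2, CD46 and VTN in double versus BRG1, and C8A and VTN in double versus BRM. Other than these and the gains given beside their genes, the block changed no call.

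Over all genes, edgeR called 3165 in double versus NS (5200 with the block, 5646 with a set term), 3284 in BRG1 versus NS (5318 and 5720), 2035 in BRM versus NS (4153 and 4684, and 1002 with only those groups), 1582 in double versus BRG1 (3259 and 3728), 2787 in double versus BRM (5302 and 5718) and 4957 in BRG1 versus BRM (7659 with a set term). The interaction had 73 (465 with DESeq2, 633 and 1061), and the set differences 364 in the BRG1 effect (1063 with DESeq2, 1412 with no filter, 172 with the block) and 542 in the double effect (961 with DESeq2, 1280 with no filter). A set term, summed C4 copies or a fit of only the groups compared give no value for some of these results. Members at a few counts, such as C6, C7, C8B and C3AR1, are limited by depth.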
